A study of Capra hircus with 4 samples.

Results

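The ZNF genes are the goat genes that carry a plain ZNF name, that is ZNF followed by a number and at most 1 letter, in the authors' table that pairs assembled transcripts with goat genes. By this rule 207 of the 11207 nuclear goat genes in the table were ZNF genes. Their levels were measured by RNA-seq in 4 libraries of longissimus dorsi muscle, a long back muscle, from Cashmere goats of 2 months. The control library came from goats without the drug, and ractopamine libraries 1, 2 and 3 came from goats given ractopamine, a β2-agonist that promotes muscle growth, by mouth at 1 mg/kg every morning in a scheme of 28 dosing days and 21 withdrawal days. The study sequenced muscle from several days in both phases, and the labels give no day and no number of animals for a library. The ractopamine libraries are therefore named by number only, and they may be different time points and not replicates.

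Most ZNF genes encode proteins with C2H2 zinc fingers. In such a finger, a pair of cysteines and a pair of histidines hold a zinc ion, and the loop between them reads a few bases of DNA or, in some members, binds RNA or protein. Many ZNF proteins also carry a KRAB domain, which recruits the corepressor TRIM28 to silence chromatin, while SCAN and BTB domains let proteins pair with each other. ZNF genes have multiplied in mammals in clusters of near-copies, and their products are usually low in skeletal muscle compared with contractile and metabolic proteins. Since neighbouring fingers repeat the same plan, a read or an assembled fragment can resemble several genes.

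The authors had joined the reads without a genome into transcripts called unigenes, and 539 unigenes were paired with the 207 ZNF genes. Of these genes, 66 had 1 unigene, 126 had 2 to 5 and 15 had more than 5, with 11 unigenes under ZNF75D as the highest number. The median length of a ZNF unigene was 436 bases and 303 were under 500 bases, so many members were covered only in pieces. The identity between the unigene and the goat protein ranged from 30 to 100%, was 100% for 288 unigenes and reached 80% for 458. The unigene annotation, also by the authors, gives the best match of each unigene in Swissprot, a curated protein database. This match carried the same gene name for 434 unigenes and another gene name for 76, and 29 had no match. The median identity was 100% for unigenes of the same name and 62.5% for those of another name. This comparison of names was chosen after the data had been seen.

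The sequences below show how alike fingers of different genes are. Each is the first finger that is followed by a link in a unigene, read in its coding stretch, with the link to the next finger in capitals. ZNF652 and ZNF300 are each shown by a unigene of another Swissprot name and one of their own, ZNF768 because its unigene shares an assembly cluster number with one under ZNF300, and ZNF75D because it had the most unigenes.
ZNF652, unigene c13708_g3, best match ZBTB47: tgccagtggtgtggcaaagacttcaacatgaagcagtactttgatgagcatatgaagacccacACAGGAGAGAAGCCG
ZNF652, unigene c6003_g1, best match ZNF652: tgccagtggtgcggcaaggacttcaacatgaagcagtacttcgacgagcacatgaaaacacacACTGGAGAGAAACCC
ZNF300, unigene c13744_g3, best match REPIN1: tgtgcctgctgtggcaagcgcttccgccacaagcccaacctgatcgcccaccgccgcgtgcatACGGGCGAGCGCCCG
ZNF300, unigene c11610_g3, best match ZNF300: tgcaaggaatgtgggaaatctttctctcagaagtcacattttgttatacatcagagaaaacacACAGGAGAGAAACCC
ZNF768, unigene c13744_g7, best match ZNF768: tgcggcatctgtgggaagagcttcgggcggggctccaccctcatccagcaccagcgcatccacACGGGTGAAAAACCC
ZNF75D, unigene c10471_g1, best match ZNF75D: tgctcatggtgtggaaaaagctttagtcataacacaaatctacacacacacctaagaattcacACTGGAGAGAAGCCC

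The fingers of the 2 ZNF652 unigenes had 68 of 78 bases in common and encoded the same 26 residues, although the unigenes match different proteins. The fingers of the 2 ZNF300 unigenes shared 36 of 78 bases and 13 of 26 residues, which is fewer than the 16 residues that the ZNF768 finger shared with that of ZNF75D. A finger followed by this link was encoded by 103 of the 539 ZNF unigenes (19.1%) and by 63 of the other 20681 unigenes paired with goat genes (0.305%). With a wider finger pattern and no link required, 155 members had at least 1 finger in a unigene, and ZNF142 had the most, 20. A KRAB domain was annotated for 53 members, a SCAN domain for 16, both for 5 and a BTB domain for 1. In the RefSeq gene table of the goat assembly ARS1.2, 177 members were found, and 62 of them lay next to another ZNF gene. These were 28 of the 43 found members with a KRAB domain and 34 of the 134 without. Domains that were not found can lie in parts that were not assembled.

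The libraries differed in depth for nuclear genes. Unigenes paired with goat genes held 7982576 counts in the control and 6973956, 6317796 and 6016927 in ractopamine libraries 1, 2 and 3, and genes encoded by the mitochondrial genome took 23.8%, 42.8%, 97.9% and 55.2% of these. Without them, 6086312 counts remained in the control and 3991046, 133802 and 2697657 in the ractopamine libraries. Each member was therefore compared on 2 scales: as a share of all goat-paired counts, which the choice of members prescribes, and as a share of the nuclear ones (nuclear scale). Among the skeletal muscle markers, 4 of 8 had a name in the table. Creatine kinase CKM had 310668 counts in the control library, troponin TNNT3 had 64028 and myosin MYH2 had 2274, whereas the skeletal actin ACTA1 had only 130 and, in the ractopamine libraries, 6, 0 and 3. In counts per 1000000 nuclear counts (nuclear CPM), the 4 together held 61959 in the control and 64829, 89236 and 115351 in the ractopamine libraries. Markers of other cells (6 of 11 in the table) held 276, 251, 2265 and 329 nuclear CPM in the same order. In ractopamine library 2 the collagen gene COL1A1 had 119 counts and the adipocyte gene ADIPOQ had 99, where the control library had 98 and 75 at a much greater depth, while the leukocyte marker PTPRC had 0 to 2 counts in every library. Fewer cells of a type and less RNA per cell cannot be told apart in such muscle libraries.

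ZNF genes were a small part of the muscle transcriptome, and a smaller one in every ractopamine library than in the control library. They held 18230 counts in the control and 9276, 239 and 5208 in ractopamine libraries 1, 2 and 3. As a share of all goat-paired counts this was 0.228% (95% Wilson interval 0.225 to 0.232) in the control and 0.133% (0.130 to 0.136), 0.00378% (0.00333 to 0.00429) and 0.0866% (0.0842 to 0.0889) in the ractopamine libraries. On the nuclear scale the shares lay closer together, at 0.300%, 0.232%, 0.179% and 0.193%, and the intervals of the ractopamine libraries did not reach that of the control library. The x-fold, the share in a ractopamine library divided by that in the control, was 0.776 (95% exact interval 0.757 to 0.796), 0.596 (0.523 to 0.678) and 0.645 (0.625 to 0.665) for the summed nuclear counts. These intervals cover counting error only, and conditions were not tested against each other because the control is a single library. Most goat genes tested were also below the control on this scale, with median x-folds of 0.747, 0.631 and 0.711. A sum and a median are different measures, and a decline particular to ZNF genes was not tested. The summed x-folds did not rest on ZNF106 or ZNF75D, both among the 3 most counted members. Without ZNF106 they were 0.810, 0.690 and 0.703, and without ZNF75D 0.705, 0.562 and 0.639.

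A level of 10 or more counts was reached by 139 members in the control library, by 88 in ractopamine library 1, by 3 in ractopamine library 2 and by 85 in ractopamine library 3. These were 67.1%, 42.5%, 1.45% and 41.1% of the members, and the same level was reached by 77.3%, 66.1%, 11.6% and 60.8% of all nuclear goat genes. At least 1 count was found for 202, 183, 73 and 172 members. These counts move with depth. A gene with an unchanged nuclear share needs 455 control counts to give 10 counts in ractopamine library 2, and 5 members had that many, of which 3 reached 10 there: ZNF75D (30 counts), ZNF652 (20) and ZNF106 (19). In ractopamine libraries 1 and 3 the same reckoning needs 15.2 and 22.6 control counts, which 120 and 104 members had, and 83 members in each case reached 10. A count of 0 in ractopamine library 2 allows up to 3 counts, which is 22.4 nuclear CPM there and above the control level of most members.

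Single members were compared where a ractopamine library and the control library had 20 or more counts together. A member was called lower below an x-fold of 0.6 and higher above 3, the limits of the study, if the exact 95% interval also left out 1. Because the control library was deeper, genes low in the ractopamine libraries passed this minimum more easily. On the scale of all goat-paired counts, 77 of 124 members were called lower in ractopamine library 1, where 51.4% of all goat genes tested were, and 2 were called higher, where 2.93% were. In ractopamine library 2 all 109 members tested were called lower, as were 99.3% of the goat genes, and in ractopamine library 3 it was 93 of 118 members and 69.2% of the goat genes. In all 3 ractopamine libraries 63 of 109 members were called lower (49.3% of goat genes), and in ractopamine libraries 1 and 3 it was 67 of 118 (47.7%).

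On the nuclear scale fewer members were called. In ractopamine library 1, 52 of 124 members were lower (35.6% of goat genes) and 2 higher (4.94%). Ractopamine library 3 had 46 of 118 lower (34.7%) and none higher (2.08%). In ractopamine library 2, 2 of 109 were lower (13.9%) and 1 was higher (7.39%), and 44 of the 109 tested members, or 40.4%, were listed at 0 there, compared with 22.5% of the goat genes tested. In both ractopamine libraries 1 and 3, 29 of 118 members were lower (23.5%) and none was higher (1.08%), and no member was lower in all 3 ractopamine libraries (6.53%). The median x-fold of the members was 0.628, 0.428 and 0.601 in ractopamine libraries 1, 2 and 3, and that of all goat genes was 0.747, 0.631 and 0.711. On the log2 scale the goat genes thus had medians of -0.42, -0.66 and -0.49 and the members -0.67, -1.23 and -0.73. At the depth of ractopamine library 2, the zeros, the calls and the median depend on how many counts a gene has. The median control count over all members was only 23, and goat genes with similar control counts were not compared. The values of ractopamine library 2 therefore do not set ZNF genes apart. The share of members called lower was 41.9% in ractopamine library 1 and 39.0% in ractopamine library 3, so that the calls alone do not set ZNF genes apart from the 35.6% and 34.7% of all goat genes.

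**Figure D1:**
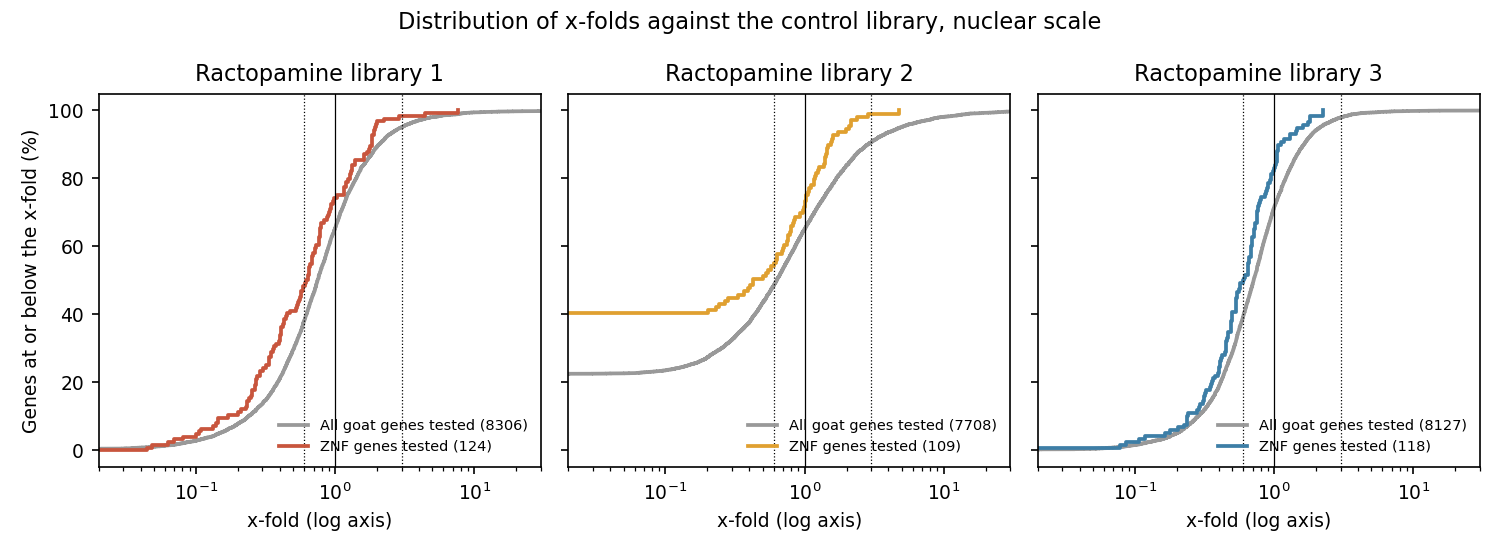
Share of genes (y axis, %) at or below an x-fold (x axis, log scale) in each ractopamine library on the nuclear scale, for the ZNF genes tested (coloured) and all goat genes tested (grey), with the limits 0.6 and 3 dotted. The coloured line lies to the left of the grey line over most of each panel, with medians of 0.628, 0.428 and 0.601 against 0.747, 0.631 and 0.711. In ractopamine library 2 it starts at 40.4%, the share of members listed at 0, which depends on the low depth of that library.

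Levels of different members were compared per length. The highest control level was that of ZNF106, an RNA-binding protein needed for motor neurons and muscle in mice, with 60.7 nuclear CPM per kb, 16.5 times the median of 3.68 over the 139 members with 10 or more counts. ZNF300 (49.8), ZNF652 (31.7), ZNF76 (31.6), ZNF622 (28.9), ZNF706 (20.8), ZNF75D (19.4), ZNF32 (18.8), ZNF259 (18.3) and ZNF329 (17.5) followed on the same scale per kb. Because the length is that of all unigenes under a name, fragments lower this level.

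ZNF106 had 3733 counts in the control and 1580, 19 and 689 in ractopamine libraries 1, 2 and 3. It was the only member besides ZNF76 that was called lower in ractopamine library 2 on the nuclear scale. Its nuclear x-folds were 0.645 (0.608 to 0.685), 0.232 (0.139 to 0.362) and 0.416 (0.383 to 0.452), so that each ractopamine library was below the control by more than counting error. ZNF76, which binds promoters of small nuclear RNA genes like its relative ZNF143, had 535 counts in the control and 199, 5 and 188 in the ractopamine libraries. Its x-folds were 0.567, 0.425 (0.137 to 0.998) and 0.793, the second resting on 5 counts. ZNF329 was further below the control, with 274 counts against 62, 2 and 38 and x-folds of 0.345 in ractopamine library 1 and 0.313 in ractopamine library 3.

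ZNF622, which helps to finish the large ribosomal subunit, had 284 counts in the control and 164, 5 and 86 in the ractopamine libraries. In ractopamine library 1 its nuclear x-fold was 0.881 with an interval of 0.722 to 1.07, a difference not detectable at this depth, and in ractopamine library 3 it was 0.683. ZNF706, which encodes a very short protein, stood apart from most members, with 421 counts in the control and 385, 7 and 195 in the ractopamine libraries. Its nuclear x-fold was 1.39 (1.21 to 1.61) in ractopamine library 1 and 1.05 (0.877 to 1.24) in ractopamine library 3, and on the scale of all goat-paired counts these values were 1.05 and 0.614. ZNF32 had 133 counts against 101, 4 and 51, and none of its nuclear intervals left out 1. ZNF259, an older name of ZPR1 whose fingers are not of the C2H2 type, had 220 counts against 80, 3 and 44, and was called lower in ractopamine libraries 1 and 3 with nuclear x-folds of 0.555 and 0.451.

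**Figure D2:**
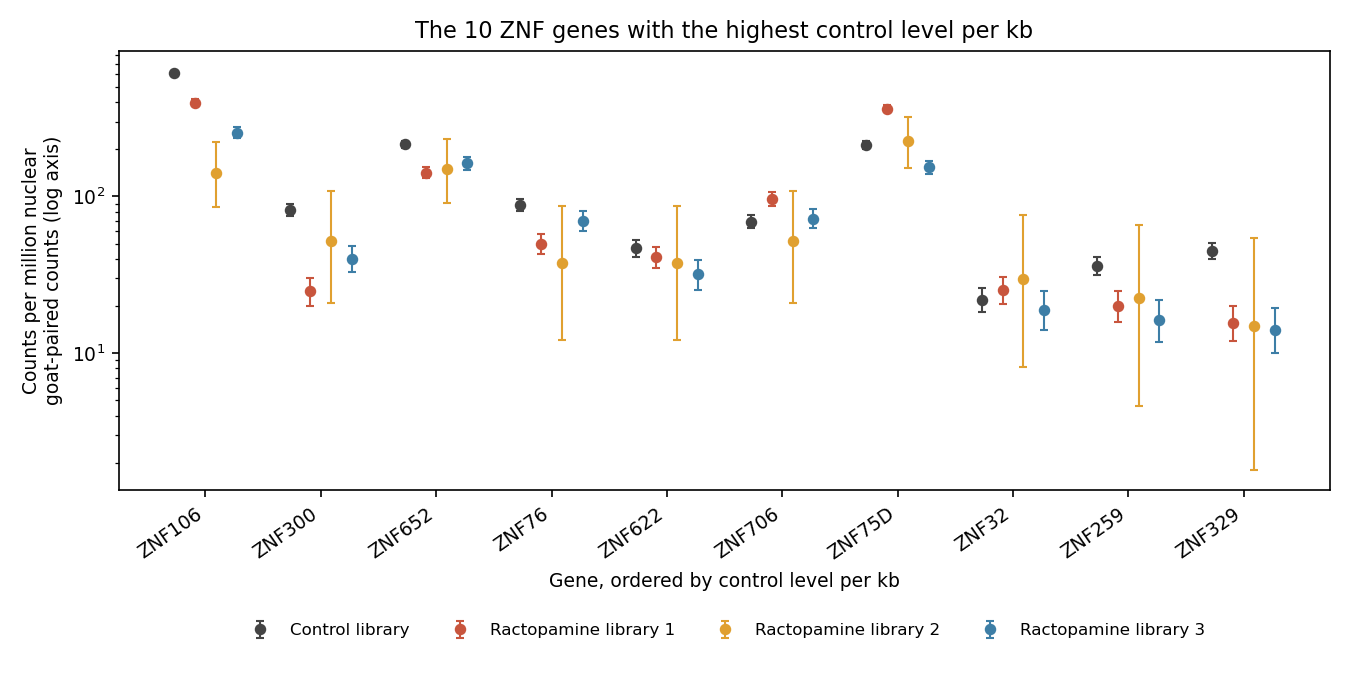
Nuclear CPM (y axis, log scale) of the 10 members with the highest control level per kb, in the control and the 3 ractopamine libraries, with exact 95% Poisson intervals for counting error. ZNF75D, ZNF706 and ZNF32 lie above the control in ractopamine library 1. The other members shown, ZNF106 and ZNF329 among them, lie below the control in every ractopamine library, and the intervals of ractopamine library 2 are wide.

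Under several of the most counted names, most counts lay in unigenes whose best Swissprot match is another gene. All 501 control counts under ZNF300 lay in unigene c13744_g3, which is 35% identical to the goat ZNF300 protein and whose best Swissprot match is REPIN1, replication initiator 1, another zinc finger protein. The unigene that does match ZNF300, c11610_g3, had no count in the control library. The values under this name, 501 counts against 99, 7 and 108 and nuclear x-folds of 0.301 (0.240 to 0.375), 0.636 (0.254 to 1.32) and 0.486, therefore belong to a sequence closer to REPIN1. Under ZNF652, a repressor of transcription, 1262 of 1305 control counts (96.7%) lay in c13708_g3, whose best Swissprot match is ZBTB47. Unlike the unigene under ZNF300, c13708_g3 is 90% identical to the goat protein of its name, so that the other name is less certain here. Unigene c13708_g3 had 566, 20 and 433 counts in the ractopamine libraries and nuclear x-folds of 0.684, 0.721 and 0.774. The ZNF652 unigene c6003_g1 had 35 counts in the control and 1, 0 and 4 in the ractopamine libraries, which gave x-folds of 0.0436 (0.00107 to 0.259) in ractopamine library 1 and 0.258 (0.0666 to 0.721) in ractopamine library 3. The 2 unigenes thus differed in x-fold, and the sum under the name, at 0.663 and 0.757, followed the more abundant one.

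ZNF75D, a member with a SCAN domain, had the clearest split. Under this name there were 1299 counts in the control and 1451, 30 and 415 in the ractopamine libraries, and the nuclear x-fold was 1.70 (1.58 to 1.84) in ractopamine library 1 and 0.721 (0.644 to 0.806) in ractopamine library 3. The only unigene whose Swissprot match is ZNF75D, c10471_g1, had 704 counts against 444, 17 and 299. Its x-folds were 0.962 (0.852 to 1.08), 1.10 (0.636 to 1.77) and 0.958 (0.834 to 1.10), so that no difference from the control library was detectable in any ractopamine library. The other 10 unigenes had no Swissprot match, and 595 counts in the control against 1007, 13 and 116. Of these, c13651_g19, at 65% identity, had 188 counts against 632, 13 and 49 and an x-fold of 5.13 (4.35 to 6.07) in ractopamine library 1. Unigene c13456_g6, at 55% identity, had 379 counts against 241, 0 and 63 and an x-fold of 0.375 (0.283 to 0.491) in ractopamine library 3. Unigene c1835_g1, at 56% identity, had 16 counts against 113, 0 and 1. The higher level under ZNF75D in ractopamine library 1 thus came from unigenes without a database match to the protein.

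ZNF34 was made up in the same way. Of its 152 control counts, 116 lay in c13744_g4, which matches ZNF787 and is 30% identical to ZNF34, and 25 lay in c9022_g1, which matches ZNF34. The first had 67, 7 and 51 counts in the ractopamine libraries and the second 9, 0 and 10. For ZNF713 the authors' table of goat genes and Swissprot disagree, and which name is right was not tested. Its only unigene, c9285_g1, is 100% identical to the goat protein of that name, yet its best match is MRPS17, a protein of the mitochondrial ribosome, and no finger was found in it. In all, 80.4% of the control counts of ZNF genes lay in unigenes of the same name, and 76.3%, 74.1% and 79.4% of those in ractopamine libraries 1, 2 and 3. Of the 139 members with 10 or more control counts, 18 had under 50% of them in unigenes of the same name. With unigenes of the same name only, the median nuclear x-folds of the members were 0.637, 0.426 and 0.579, 44 of 108 members were lower in ractopamine library 1 and 42 of 104 in ractopamine library 3, near the 35.6% and 34.7% of all goat genes, and none was higher in either (4.94% and 2.08%).

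**Figure D3:**
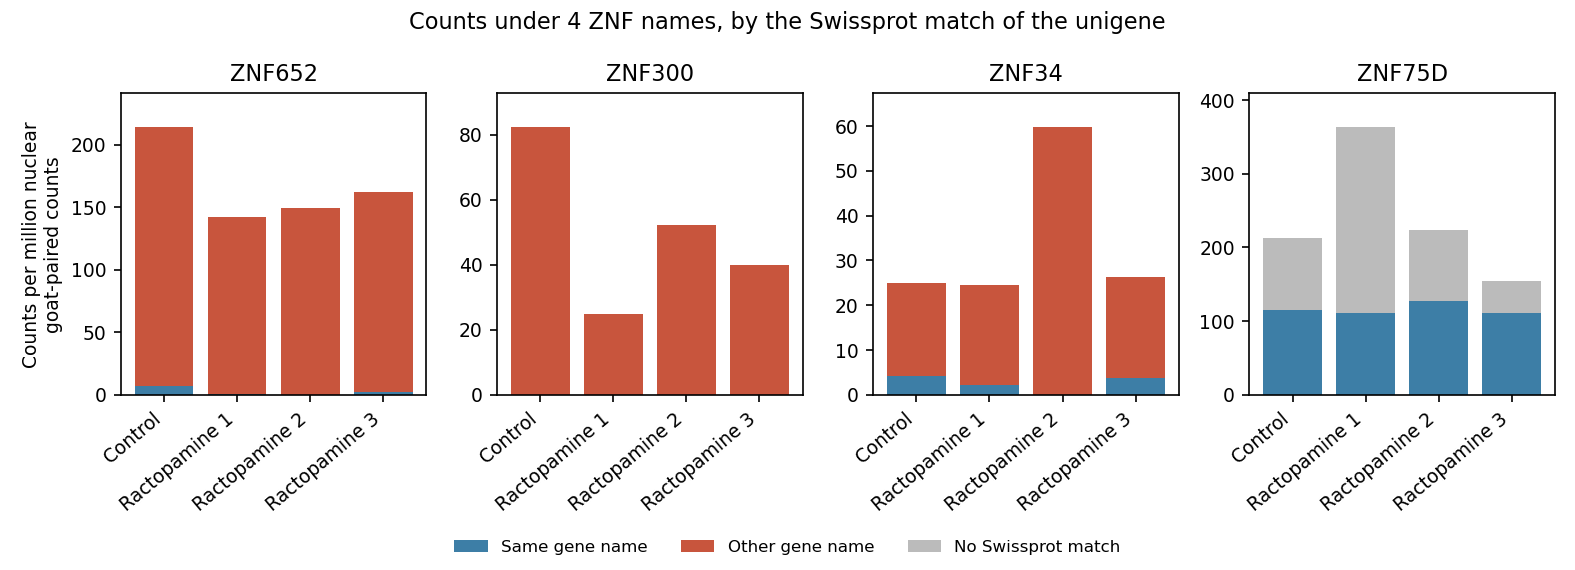
Nuclear CPM (y axis) under ZNF652, ZNF300, ZNF34 and ZNF75D in the control and the 3 ractopamine libraries, stacked by the Swissprot match of the unigene (the same gene name in blue, another gene name in red, no match in grey). For ZNF75D the blue part is at 116, 111, 127 and 111 nuclear CPM in the control and ractopamine libraries 1, 2 and 3, and the grey part is highest in ractopamine library 1, where c13651_g19 had 632 counts.

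Separate unigenes of a member could also move apart when both matched the name. For ZNF583, c6226_g1 had 116 counts in the control and 15, 0 and 21 in the ractopamine libraries, and c11069_g2 had 100 against 69, 1 and 54. The first had a nuclear x-fold of 0.197 (0.107 to 0.339) in ractopamine library 1 and the second 1.05 (0.763 to 1.44). A wider count took all unigenes that reached 20 counts with the control, whatever their Swissprot match. Among members with at least 2 of these, 11 of 21 had unigenes on both sides of 1 in ractopamine library 1 and 6 of 25 in ractopamine library 3. This count used x-folds without their intervals, and the same share over all goat genes was not computed.

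The lowest members among those called lower in both ractopamine libraries 1 and 3, ranked on the scale of all goat-paired counts by the library closer to no change, were ZNF664, ZNF655, ZNF609, ZNF24 and ZNF385A. All 5 had at most 69 control counts, of which 89.7% (ZNF655) to 100% lay in unigenes of the same name. ZNF609, the host gene of a circular RNA studied in muscle formation, had 69 counts in the control and 2, 0 and 5 in the ractopamine libraries, and nuclear x-folds of 0.0442 (0.00525 to 0.166) and 0.163 (0.0515 to 0.400) in ractopamine libraries 1 and 3. ZNF24, a SCAN protein known as a repressor of VEGFA, had 63 counts against 6, 2 and 5, with x-folds of 0.145 and 0.179. ZNF664 had 38 counts against 2, 1 and 2, with x-folds of 0.0803 and 0.119. These genes were chosen as the lowest in both libraries, so that low x-folds follow from the choice, and the values rest on few counts. ZNF655 had 29 counts against 2, 1 and 1, with x-folds of 0.105 and 0.0778. ZNF385A, which binds RNA and p53, had 55 counts against 5, 0 and 5, with x-folds of 0.139 and 0.205. In ractopamine library 2 their intervals on the nuclear scale all included 1, from 0.0295 to 7.08 for ZNF664.

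Members called higher were few. The 2 called higher in ractopamine library 1 were ZNF470, with 10 counts in the control and 29, 2 and 8 in the ractopamine libraries, and ZNF783, with 5 against 25, 1 and 6. Their nuclear x-folds were 4.42 (2.09 to 10.2) and 7.62 (2.87 to 25.5). Most of these counts lay in unigenes without the same name. Of the 29 counts of ZNF470, 17 lay in a unigene closest to ZNF420, and all 25 of ZNF783 lay in one at 52% identity without a Swissprot match. The single member called higher in ractopamine library 2 on the nuclear scale was ZNF414, with 38 counts in the control and 17, 4 and 19 in the ractopamine libraries. Its x-folds were 0.682 (0.361 to 1.24), 4.79 (1.24 to 13.3) and 1.13 (0.614 to 2.01), so that the call rested on 4 counts. These 3 members and those in the next paragraph were picked after their values were seen.

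For 3 of the 118 members tested in both, the nuclear interval lay above 1 in ractopamine libraries 1 and 3, where it did for 8.89% of all goat genes, and none of the 3 reached the limit of 3. ZNF22 had 86 counts in the control and 108, 3 and 69 in the ractopamine libraries, with x-folds of 1.92 (1.43 to 2.57) and 1.81 (1.30 to 2.51). ZNF277 had 110 counts against 96, 5 and 85, with x-folds of 1.33 and 1.74. ZNF713, the name whose unigene matches MRPS17, had 49 counts against 62, 1 and 49, with x-folds of 1.93 and 2.26. By the same measure, 40 of 118 members lay below 1 in both libraries, a share near the 34.5% of all goat genes, and both comparisons share the control. The interval lay above 1 in ractopamine library 1 and below 1 in ractopamine library 3 for 6 members (3.71% of goat genes) and the other way round for 1 (1.64%). The 6 were ZNF75D, ZNF131, ZNF385B, ZNF462, ZNF644 and ZNF692, and the 1 was ZNF768. ZNF131, a BTB transcription factor, had 45 counts in the control and 85, 1 and 7 in the ractopamine libraries, with x-folds of 2.88 (1.98 to 4.23) and 0.351 (0.134 to 0.784). ZNF768 had 309 counts against 146, 7 and 179, with x-folds of 0.721 (0.588 to 0.880) and 1.31 (1.08 to 1.58).

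**Figure D4:**
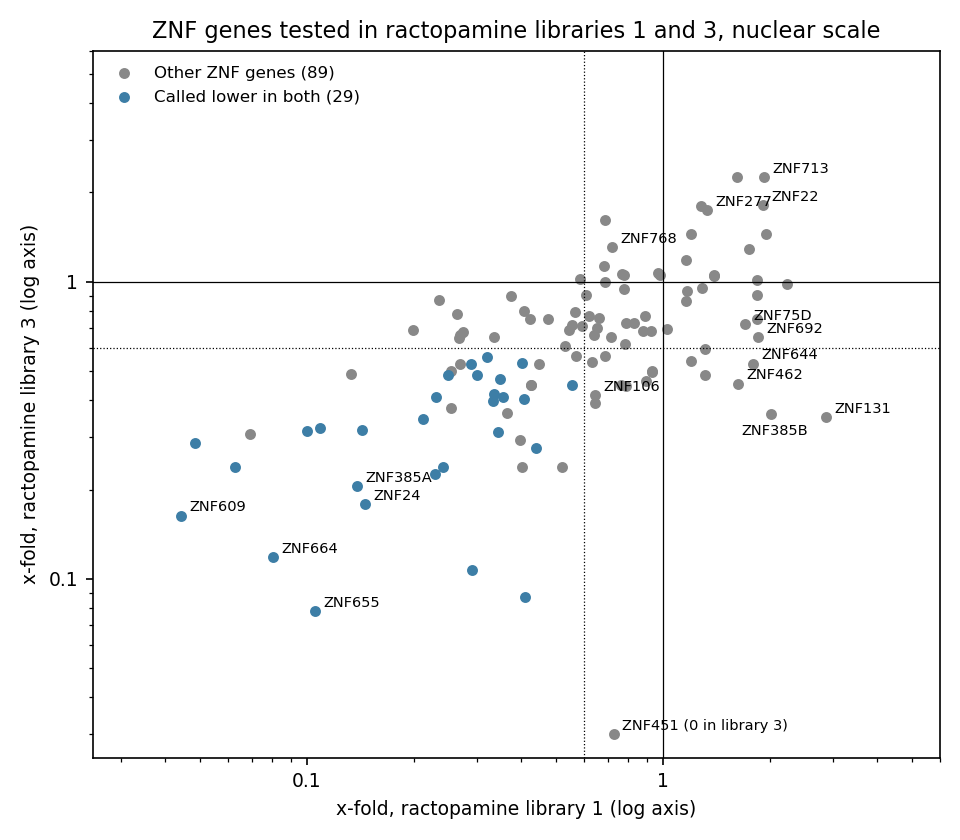
Nuclear x-folds of the 118 members tested in both ractopamine library 1 (x axis) and ractopamine library 3 (y axis), both on log axes, with lines at 1 and dotted lines at 0.6, and with the 29 members called lower in both in blue. ZNF609, ZNF664 and ZNF655 lie at the lower left, ZNF22, ZNF277 and ZNF713 are above 1 on both axes, and ZNF131 and ZNF385B are among those above 1 in ractopamine library 1 only. ZNF451, with 0 counts in ractopamine library 3, is drawn at the lower edge, and both axes share the control library.

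By role, 11 members act in RNA processing, on ribosomes or at the spindle, and all 11 had 10 or more control counts. They held 875 nuclear CPM in the control and 687, 321 and 453 in the ractopamine libraries, ZNF106 being the largest part. Without ZNF106 the summed x-folds of the other 10 were 1.11 (1.03 to 1.20), 0.687 (0.439 to 1.03) and 0.755 (0.683 to 0.833). In ractopamine library 1, 1 of 11 was called lower and none higher, and in ractopamine library 3, 5 of 11 were lower, where 35.6% and 34.7% of all goat genes were lower. Their median x-folds were 0.881 and 0.501, where all goat genes had 0.747 and 0.711. ZNF638, which takes part in splicing and fat cell formation, had 258 counts in the control and 312, 3 and 103 in the ractopamine libraries, with x-folds of 1.84 (1.56 to 2.18) and 0.901 (0.710 to 1.14). ZNF598, the ubiquitin ligase that senses collided ribosomes, had 161 counts against 68, 1 and 28 and x-folds of 0.644 and 0.392. ZNF207, a spindle protein that loads BUB3, had 222 counts against 93, 5 and 65 and x-folds of 0.639 and 0.661. Control counts of ZNF326, ZNF346, ZNF593 and ZNF830 ranged from 25 to 65.

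Of the factors that bind promoters or chromatin, all 10 listed had 10 or more control counts. Of these, 6 were called lower in ractopamine library 1 and 8 in ractopamine library 3, and none was higher, where 35.6% and 34.7% of all goat genes were lower. The median x-folds were 0.504 and 0.455, and those of all goat genes 0.747 and 0.711. ZNF384 had 319 counts in the control and 67, 3 and 79 in the ractopamine libraries, with x-folds of 0.320 (0.242 to 0.418) and 0.559 (0.431 to 0.717). ZNF335, a subunit of a histone methylation complex, had 339 counts against 141, 3 and 81 and x-folds of 0.634 and 0.539. ZNF148 and ZNF281, a pair of related factors that bind GC-rich promoters, had 28 and 36 control counts and x-folds of 0.109 and 0.254 in ractopamine library 1. ZNF143 was less far from the control in ractopamine library 1, with 73 counts against 43 and an x-fold of 0.898 (0.601 to 1.33). ZNF740 had 114 counts against 33, 0 and 14, with x-folds of 0.441 and 0.277. ZNF410, an activator of CHD4, had 91 counts against 47, 1 and 18, with x-folds of 0.788 (0.542 to 1.13) and 0.446 (0.253 to 0.746).

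Of 11 listed partners of corepressors and SUMO factors, 8 were in the table and 6 had 10 or more control counts. Of those 6, 1 was called lower in ractopamine library 1 and 3 in ractopamine library 3, with none higher, where 35.6% and 34.7% of all goat genes were lower. ZNF532, ZNF592 and ZNF687, which work together with the chromatin reader ZMYND8, had 385, 183 and 116 control counts, and x-folds of 0.832, 0.717 and 0.250 in ractopamine library 1 and 0.727, 0.653 and 0.486 in ractopamine library 3. Thus ZNF687 was the lowest of the 3 in both. ZNF644, a partner of the G9a and GLP methyltransferases, had 85 counts in the control and 100, 4 and 20 in the ractopamine libraries, with x-folds of 1.79 (1.33 to 2.42) and 0.531 (0.309 to 0.872). ZNF451, a SUMO ligase, had 23 counts against 11, 1 and 0. ZNF746, also named PARIS and known to repress the gene of PGC-1α, had only 17 counts in the control and 5, 0 and 4 in the ractopamine libraries.

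Regulators of mesenchymal, fat and nerve cells had 336 counts in the control library. Of 6 listed, 5 were in the table and 4 had 10 or more control counts. ZNF423, which commits cells to the fat lineage, had 120 counts in the control and 54, 2 and 53 in the ractopamine libraries, with x-folds of 0.686 (0.488 to 0.954) and 0.996 (0.707 to 1.39). ZNF462 had 124 counts against 132, 0 and 25, with x-folds of 1.62 (1.26 to 2.09) and 0.455 (0.283 to 0.703). ZNF395 was below the control in both, with 76 counts against 20, 1 and 18 and x-folds of 0.401 and 0.534. The related ZNF521 had 14 control counts and was not compared. ADIPOQ was higher than the control on the nuclear scale in every ractopamine library, with x-folds of 8.19, 60.0 and 1.93 (1.36 to 2.72 for the last), and the part of fat cells in these values was not tested.

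Members with a KRAB domain had lower levels than the others, with a median of 1.62 nuclear CPM per kb in the control library, compared with 2.45 for members in which none was found. The 53 KRAB members held 1816 counts in the control and 780, 28 and 606 in the ractopamine libraries, and their summed nuclear x-folds were 0.655 (0.602 to 0.713), 0.701 (0.465 to 1.02) and 0.753 (0.686 to 0.826). The other 154 held 16414 counts against 8496, 211 and 4602, with summed x-folds of 0.789 (0.769 to 0.810), 0.585 (0.508 to 0.670) and 0.633 (0.612 to 0.654). In ractopamine library 1, 15 of 29 KRAB members and 37 of 95 others were called lower, and in ractopamine library 3, 5 of 25 and 41 of 93, where 35.6% and 34.7% of all goat genes were. By these sums and calls the KRAB members were the lower class in ractopamine library 1 and the higher in ractopamine library 3, but the sums depended on single members. Without ZNF75D the members with no KRAB domain found had a summed x-fold of 0.711 (0.691 to 0.731) in ractopamine library 1, still above that of the KRAB members but with an interval that overlapped theirs, and 0.625 (0.604 to 0.647) in ractopamine library 3. Without ZNF106 they had 0.832 (0.808 to 0.857) in ractopamine library 1 and 0.696 (0.672 to 0.722) in ractopamine library 3, where the interval overlapped that of the KRAB members. Without ZNF34 the KRAB members had 0.625 (0.571 to 0.684) and 0.725 (0.657 to 0.800) in these libraries. Members next to another ZNF gene had median x-folds of 0.615 and 0.650 in ractopamine libraries 1 and 3, and members not next to one had 0.645 and 0.543.

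Genes that KRAB proteins work with were measured beside them, and 14 of 15 listed had a name in the table. On the nuclear scale 6 of 14 were called lower in ractopamine library 1, 2 in ractopamine library 2 and 6 in ractopamine library 3, and 1 was higher in ractopamine library 2. The shares called lower were near the 35.6%, 13.9% and 34.7% of all goat genes. TRIM28, the corepressor bound by KRAB domains, had 1153 counts in the control and 227, 9 and 252 in the ractopamine libraries, and x-folds of 0.300 (0.259 to 0.346), 0.355 (0.162 to 0.676) and 0.493 (0.429 to 0.566). CBX5, the heterochromatin protein HP1α, had 340 counts against 43, 1 and 42, with x-folds of 0.193, 0.134 and 0.279. These 2 genes were called lower in all 3 ractopamine libraries. SETDB1, the histone methyltransferase recruited by TRIM28, had 117 counts against 35, 0 and 23, with x-folds of 0.456 in ractopamine library 1 and 0.444 in ractopamine library 3, and DNMT1 had 0.361 and 0.364. CHD4 had 718 counts against 190, 15 and 183, with x-folds of 0.404, 0.95 and 0.575, while CHD3, with 128 against 67, 9 and 71, was the gene called higher in ractopamine library 2, with an x-fold of 3.20 (1.43 to 6.26) from 9 counts. SUMO2, CBX1, CBX3, HDAC2 and NCOR1 were called in no ractopamine library.

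Other zinc finger families were compared on the nuclear scale. The 34 ZBTB genes, which join a BTB domain to zinc fingers, held 2950 counts in the control and 785, 22 and 451 in the ractopamine libraries, and their summed x-folds of 0.406 (0.375 to 0.439), 0.339 (0.212 to 0.515) and 0.345 (0.312 to 0.381) were below those of the ZNF genes in each ractopamine library. Of the ZBTB genes tested, 13 of 20 were called lower in ractopamine library 1 and 10 of 19 in ractopamine library 3, where 35.6% and 34.7% of all goat genes were. The 28 ZSCAN, ZKSCAN and ZFP genes held 2734 counts against 1941, 56 and 765, with summed x-folds of 1.08 (1.02 to 1.15), 0.932 (0.702 to 1.21) and 0.631 (0.582 to 0.684). ZFP36, whose protein binds AU-rich RNA through fingers of another type, moved these values, and without it the summed x-folds were 0.517 (0.477 to 0.559), 0.988 (0.738 to 1.30) and 0.472 (0.429 to 0.520). Without ZFP91 they were 1.74 (1.63 to 1.86), 0.694 (0.448 to 1.03) and 0.871 (0.794 to 0.956), so that the sums of this family depended on single genes. Without ZBTB16, the ZBTB gene with the most counts, those of the ZBTB genes were 0.404, 0.363 and 0.451. The median x-folds in ractopamine libraries 1 and 3 were 0.380 and 0.430 for the ZBTB genes, 0.628 and 0.601 for the ZNF genes and 0.748 and 0.643 for the ZSCAN, ZKSCAN and ZFP genes.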

How the data were processed

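RNA-seq of goat longissimus dorsi muscle was analysed for 4 libraries, 1 control and 3 treated, made with a NEBNext Ultra RNA kit and an Illumina HiSeq instrument. The authors assembled the reads into unigenes without a genome and deposited an expected count (an estimate of fragments per unigene, whole numbers here) and FPKM for each library. The submitters' processing notes name FastQC 0.10.1, and the assembler and counting tool are not given in the sources used here. The deposited table of goat genes gives the percent identity of each unigene to a goat protein, and the deposited annotation gives text matches and coding sequences, which are other, non-numeric values. Tables of unigenes per FPKM class were not used.

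From these, expected counts were summed per goat gene and divided by all goat-paired counts, or by those without the 26 unigenes of mitochondrially encoded proteins. Intervals are 95% Wilson (shares), exact Clopper-Pearson (ratios) or exact Poisson (levels). No pseudocount was used. The domains were read from the annotation, and fingers by their spacing of cysteines and histidines. The script was tested on simulated data. The control group has 1 library, so no test between groups was made. The authors counted unigenes that share fingers separately, and near-copies can exchange reads, which was not tested.

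The named genes are the 10 members with the highest control level per kb, the up to 5 lowest and 5 highest called the same way in ractopamine libraries 1 and 3 on the scale of all goat-paired counts (no member was higher), members with 10 or more counts in ractopamine library 2, members of the role lists with 10 or more control counts, and the corepressor genes, of which 1 is not reported here by name. The members and all lists were chosen with earlier results of these data known. Alternatives were other scalings, FPKM times length, limits, minimum counts, unigene choices, the transcript table, and leaving out each ractopamine library. Sums of gene groups without their most counted genes were added after the data had been seen. Python 3.11.15, numpy 2.4.6, pandas 2.3.3, scipy 1.17.1 and matplotlib 3.10.9 were used.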

Additional observations from a re-analysis of the deposited data

Results flagged for a closer look

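The summed counts of zinc finger proteins under goat gene names other than ZNF, which lie outside the group described here, were above the control library in ractopamine library 1, and 1 gene carried this. The 105 genes whose goat protein is described as a zinc finger protein held 8499 counts in the control and 10575, 133 and 2739 in ractopamine libraries 1, 2 and 3. Scaled to 1000000 nuclear counts (nuclear CPM), this was 1396 in the control and 2650, 994 and 1015 in the ractopamine libraries, and an x-fold of 1.90 (95% exact interval 1.84 to 1.95) in ractopamine library 1. ZFAND5, an AN1-type zinc finger protein known to stimulate the proteasome, was further above the control than the whole sum, with 2432 counts in the control and 7186, 29 and 679 in the ractopamine libraries, and nuclear x-folds of 4.51 (4.30 to 4.72), 0.542 (0.362 to 0.781) and 0.630 (0.578 to 0.686). Without ZFAND5 the sum was 997 nuclear CPM in the control and 849, 777 and 764 in the ractopamine libraries. Of the 46 genes tested in ractopamine library 1, 27 lay below 1, 14 were called lower and 2 higher, and the median x-fold was 0.740. These values were near those of all goat genes tested. Of the goat genes, 65.4% lay below 1, 35.6% were called lower and 4.94% higher, and their median was 0.747. ZFAND5 was picked after its values were seen.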

How the results depend on the processing

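The members' median x-folds stayed below 1 under every alternative run, and the scaling moved the medians, the shares and the number of members that passed the limits. Scaled without mitochondrial genes, the calls were 3 in ractopamine library 2 and 46 in library 3, where all goat-paired counts gave 109 and 93, 0 were lower in all 3 (63), the medians were 0.628, 0.428 and 0.601 (0.471, 0.0119 and 0.354) and the shares were 0.300% in the control and 0.232%, 0.179% and 0.193%. With the median ratio of goat genes set to 1, the calls were 40 of 124, 5 of 109 and 22 of 118 members tested (37, 1 and 20 lower). The medians were 0.840, 0.678 and 0.845, and 0 were lower in all 3. The share of all goat genes called on this scale was not computed. With unigenes of the same Swissprot name and no mitochondrial genes, chosen after seeing the data, the calls were 44 of 108, 4 of 94 and 42 of 104. Of these, 44, 3 and 42 were lower, where 35.6%, 13.9% and 34.7% of all goat genes were on the nuclear scale. In all 3 libraries 0 were lower. The medians were 0.637, 0.426 and 0.579 and the shares 0.241%, 0.177%, 0.132% and 0.153%. In the same order (control, then ractopamine libraries 1, 2 and 3) the shares were 0.214%, 0.116%, 0.00326% and 0.0780% of all expected counts, 0.196%, 0.107%, 0.00307% and 0.0743% with an identity of at least 80%, 0.196%, 0.111%, 0.00317% and 0.0774% with the unigene with most counts of each gene, and 0.184%, 0.102%, 0.00280% and 0.0688% with the same Swissprot name, and FPKM times length gave 0.234% in the control. A minimum of 5 counts was reached by 14 members in ractopamine library 2, where 10 counts were reached by 3. Leaving out a ractopamine library, 67 to 89 members were lower in the remaining ones on the scale of all goat-paired counts. The 67, of 118 tested, were those of ractopamine libraries 1 and 3, where 47.7% of goat genes were lower in both. For the other pairs of libraries the share of all goat genes was not computed.

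Of the named x-folds called on the scale of all goat-paired counts, 11 moved to the other side of 1 when scaled without mitochondrial genes. With the median ratio of goat genes set to 1, 28 did, and these included the same 11. X-folds not called on the scale of all goat-paired counts were left out of these numbers, and some also crossed 1. That of ZNF32 in ractopamine library 1, for example, was 0.869 on that scale and 1.16 on the nuclear scale. Scaled without mitochondrial genes, those in ractopamine library 2 were 1.05 for ZNF75D, 1.37 for ZNF32, 1.20 for ZNF664, 1.57 for ZNF655, 1.44 for ZNF24, 1.02 for ZNF207, 1.40 for ZNF593, 1.01 for ZNF131, 1.25 for ZNF143, 1.98 for ZNF451 and 2.14 for ZNF644. With the median ratio set to 1 they were 1.01 for ZNF300, 1.11 for ZNF652, 1.27 for ZNF622, 1.20 for ZNF706, 1.67 for ZNF75D, 2.17 for ZNF32, 1.90 for ZNF664, 2.49 for ZNF655, 2.29 for ZNF24, 1.62 for ZNF207, 1.34 for ZNF326, 2.22 for ZNF593, 1.60 for ZNF131, 1.98 for ZNF143, 3.14 for ZNF451, 1.12 for ZNF532, 1.18 for ZNF592, 3.39 for ZNF644 and 1.20 for ZNF423 in ractopamine library 2, 1.06 for ZNF652, 1.11 for ZNF76, 1.01 for ZNF75D, 1.22 for ZNF32, 1.27 for ZNF638, 1.34 for ZNF830, 1.02 for ZNF532 and 1.40 for ZNF423 in library 3, and 1.05 for ZNF410 in library 1. The other scalings, limits, minimum counts and unigene choices moved none of the called x-folds across 1.

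No paired analysis was possible because the control has 1 library. The 133802 nuclear counts of ractopamine library 2 limit its x-folds, and unigenes without the same Swissprot name limit what a ZNF name stands for.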
